A study of Drosophila melanogaster with 12 samples.

Results

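Genes that carry only a CR number in the fly gene catalogue make RNAs with no annotated protein, and 111 of the 2397 such genes in the deposited table reached a value of 50 or more in 3 or more of the 12 libraries. These 111 genes are described here. The measured values themselves chose them, so neither their level nor their passing the minimum is a finding. The RNA came from γ neurons of the mushroom body, the memory centre of the Drosophila melanogaster brain, which prune and regrow their axons during metamorphosis. The pupae were staged from puparium formation, and the times were 6, 12, 18 and 24 h, each with replicates A, B and C.

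All 12 libraries share 1 genotype: y,w/+ on the first chromosome pair, UAS-RedStinger/+ on the second and 71G10/UAS-HR51 RNAi on the third. RedStinger is a nuclear form of the red fluorescent protein DsRed, 71G10 is a driver line used to reach γ neurons, and the RNA interference targets Hr51, the nuclear receptor gene also called unfulfilled. Every library therefore carries the knockdown, a control genotype was not analysed here, and only times can be compared. Each library was made from 1000 DsRed-positive cells sorted from dissociated brains of males and females, with MARS-seq, a method that reads the 3′ ends of polyadenylated RNA. The labels do not say that replicates came from separate dissections, so the p-values measure the spread between these libraries, which may be technical.

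Long noncoding RNAs are transcribed, and often spliced and polyadenylated, like messenger RNAs, but are not known to be translated. Some act as RNAs on chromatin, on other RNAs or on proteins, some are the precursors from which microRNAs are cut, and for many no function is known. Many lie inside or across protein-coding genes. A read from the shared stretch then fits both genes, and a read from a coding gene's intron or long 3′ end can be counted for the noncoding gene.

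Levels below are in the units of the table, reads per 10000000 mapped reads, called units here. A single read was worth 2.665 to 6.261 units, and 50 units stood for 7.99 to 18.8 reads. Libraries held 1597241 to 3752666 mapped reads (median 2345770), and the 111 genes together held 0.962% to 1.80% of the reads. The libraries labelled 6 h A and 12 h A stood apart: over all rows tested, the correlation of log2 values across genes was 0.740 and 0.709 between 6 h A and 6 h B or C, against 0.843 between 6 h B and C, while 6 h A reached 0.875 with 18 h B and 12 h A reached 0.869 with 6 h B. With these included, 8 of the 12 libraries had their closest library at another time. For 6 h B and 6 h C that was 12 h A (0.869 and 0.849), and for 18 h B it was 6 h A (0.875). The others were 18 h A and 12 h B (0.842, with each other) and 18 h C (0.819 with 24 h C, against 0.818 with 18 h B). Results are therefore given with all libraries and with replicates B and C alone. All 11 markers of Kenyon cells, the neurons of the mushroom body, and all 7 neuronal markers passed the minimum. Glial markers together took 0.0138% to 0.0471% of reads, with 1 of 7 passing. No list set γ neurons apart from other Kenyon cells, so the γ label itself was not tested. Of the other lists, 1 of 5 hemocyte, 1 of 5 muscle, 2 of 7 dividing-cell and 0 of 4 fat body markers passed.

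The annotation bore the label out for 98 of the 111 genes, all of them with the biotype noncoding RNA. Of these, 73 carry the prefix for long noncoding RNA and 25 the prefix for antisense RNA. The other 13 lie on 6 unplaced scaffolds and were not matched to the annotation. On 1 of those scaffolds, 8 overlapping genes all share bases on their strand with rows that the table names as ribosomal RNA. There, 6 of the 8 differed from each other by at most 13 reads in any library and the other two had identical reads, so these 8 values are not 8 separate measurements.

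Only 4.63% of the CR-numbered genes passed the minimum, against 49.1% of coding genes, and 1857 CR-numbered genes were at 0 in every library. The members just inside the minimum were CR43685, CR42767 and CR42254, whose third-highest values were 53.8, 51.7 and 50.8 units. Just outside were CR44898, CR41619 and CR45164, at 48.0, 47.7 and 47.4 units. A total of 43 members were at 50 units or more in all 12 libraries, and 17 in exactly 3. Members averaged under 100 units in 47 cases and at least 1000 units in 20 cases.

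By position, 45 members share at least 1 base with a coding gene on the same strand, 22 overlap a coding gene on the opposite strand only, and 6 begin within 1000 bases downstream of a coding gene on their strand. A further 25 lie apart from coding genes, and 13 are on scaffolds. When most of the member (a share of at least 0.5 of its bases) had to overlap, the same-strand group shrank to 27 and the group apart grew to 43. The median of the mean levels was 170 units in the same-strand group, 62.5 units in the opposite-strand group, 108 units in the group apart and 388 units on scaffolds. Of the 10 members with the highest mean, 8 overlap a coding gene on their strand and 6 lie on the X chromosome, which holds 26.1% of the members and 17.5% of all rows tested.

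**Figure D1:**
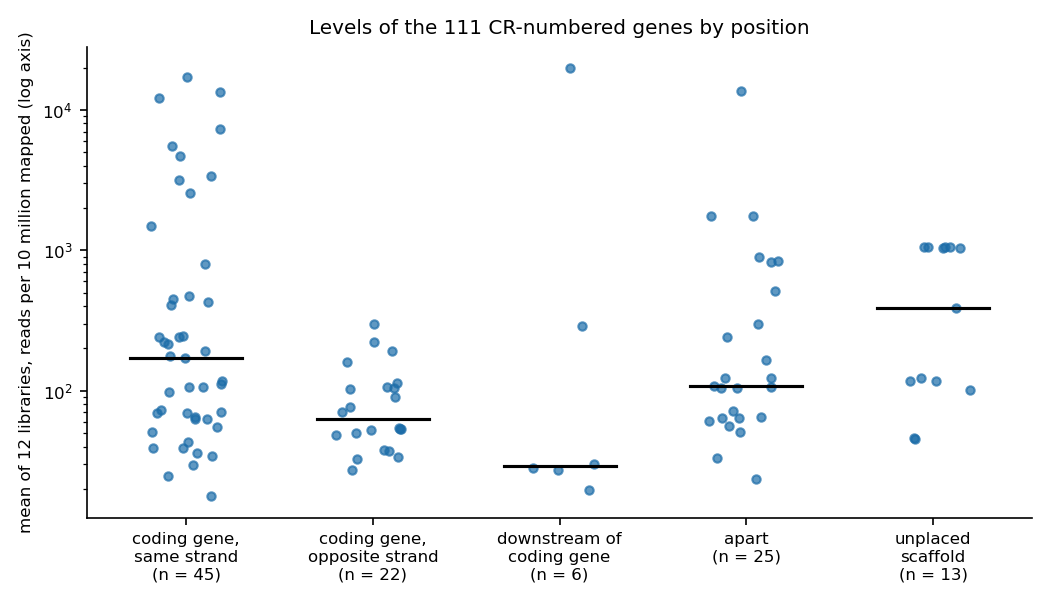
Mean level of each of the 111 members over the 12 libraries (vertical log axis, reads per 10000000 mapped), grouped by position relative to coding genes; black bars are medians. The median of the same-strand group, 170 units, lies above the 108 units of the members apart from coding genes.

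The highest member, CR31451, now named lncRNA:mimi, spans bases 23983503 to 23985065 of chromosome 3R on the plus strand. It lies just downstream of CG31140 and shares no base with a coding gene on its strand. In replicates A, B and C its level was 22468, 22573 and 20636 units at 6 h, 17291, 16691 and 18333 at 12 h, 18431, 20291 and 18865 at 18 h, and 16738, 22074 and 22207 at 24 h. The highest library was 1.35 times the lowest. The libraries of 6 h lay above those of 18 h and these above those of 12 h, while 24 h overlapped the other times; any change over the 4 times did not pass (limma, adjusted p = 0.774). The log2 difference between 24 and 6 h was -0.12 ± 0.19 (SE, n = 3 each, limma, adjusted p = 0.860). CG31140 was also high, at 9490 to 16286 units. Reads of a coding transcript that runs on past its annotated end cannot be told apart from reads of CR31451 here.

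CR42862 (chromosome 3L, bases 224106 to 230964, plus strand) shares bases with CG33229, but held far more reads: 1928% of those of CG33229 over all libraries. It was at 13034, 16194 and 18407 units at 6 h, 16172, 16230 and 21684 at 12 h, 22885, 14650 and 16817 at 18 h, and 16146, 17264 and 15826 at 24 h. If every read of CG33229 were subtracted, 92.1% to 96.9% of its value would remain in each library. Its times overlapped, with a log2 difference between 24 and 6 h of 0.06 ± 0.22 (SE, limma, adjusted p = 0.954).

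CR46006 had the third highest mean and lies apart from coding genes, 45368 bases from the nearest one (3L, bases 10323501 to 10367450, plus strand). The gene of the microRNA mir-276a lies inside it on the same strand; in flies this microRNA acts in mushroom body neurons in olfactory memory. The level of CR46006 was 5608, 21766 and 21612 units at 6 h, 14790, 13342 and 16962 at 12 h, 14528, 11565 and 11940 at 18 h, and 13513, 8180 and 9377 at 24 h. Replicates B and C were highest at 6 h and lowest at 24 h, while replicate A was lowest at 6 h. The row of mir-276a itself held 2 reads in all, against 40813 for CR46006.

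Its neighbour CR46004 (3L, bases 10306678 to 10320600, plus strand) holds mir-276b, the sister gene of mir-276a. It was at 267, 1484 and 1190 units at 6 h, 889, 1255 and 1371 at 12 h, 585, 743 and 341 at 18 h, and 1021, 576 and 330 at 24 h. Here too replicate A alone was low at 6 h.

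Of the 111 members, 10 have a microRNA gene inside them on their strand, 7 of them apart from coding genes; the other 8 were picked out for this after values were seen. CR45919 holds mir-124, a microRNA typical of neurons in many animals, and ranged over 320 to 601 units at 6 h, 455 to 1085 at 12 h, 193 to 654 at 18 h and 329 to 577 at 24 h, so that all times overlapped. CR43334 holds mir-ban (bantam, a microRNA of growth and cell survival) and was at 12.9, 298 and 482 units at 6 h, but between 0 and 106.6 units in all 9 later libraries. CR45910 holds mir-1000 and was at 0, 192 and 200 units at 6 h, 26.6, 284 and 108 at 12 h, 13.0, 0 and 4.946 at 18 h, and 112, 82.3 and 65.4 at 24 h. It was thus lowest at 18 h, the 3 libraries of which lay below all those of 12 and 24 h. The remaining hosts, of mir-275, mir-315, mir-4973, mir-31b and mir-987, ran between 0 and 282 units with wide gaps between replicates. These rows count polyadenylated RNA of the host, and mature microRNAs were not measured.

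CR44997 (X, bases 22657324 to 22797682, plus strand) spans 140359 bases apart from coding genes, the nearest of which is 11610 bases away. In replicates A, B and C it was at 168, 7539 and 5447 units at 6 h, 3560, 609 and 345 at 12 h, 620, 350 and 420 at 18 h, and 444, 560 and 915 at 24 h. High values were seen in 3 libraries: 6 h B, 6 h C and 12 h A. The library labelled 6 h A held the lowest value of all 12. No other row of the table shares bases with it on its strand.

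CR43283, now lncRNA:cherub (3R, bases 11247631 to 11256123, minus strand), is known from fly neural stem cells, where it is passed on unevenly at division. It was at 465, 1759 and 1809 units at 6 h, 2338, 3463 and 3557 at 12 h, 2142, 1004 and 1029 at 18 h, and 995, 902 and 1514 at 24 h. Within each replicate, 12 h was the highest time. All 12 libraries held it, and markers of dividing cells together took at most 0.00400% of reads.

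CR44024 on chromosome 4 (bases 427331 to 431769, plus strand), chosen after its values were seen, was highest at 24 h. It was at 422, 432 and 776 units at 6 h, 410, 1017 and 1252 at 12 h, 772, 485 and 519 at 18 h, and 1888, 1475 and 1224 at 24 h. All 3 libraries of 24 h lay above all 3 of 6 h, and above all 3 of 18 h. The log2 difference between 24 and 6 h was 1.53 ± 0.41 (SE, limma, n = 3 each), which missed the threshold (adjusted p = 0.175), as it did in B and C alone (1.21 ± 0.37, adjusted p = 0.0523). DESeq2 on the reads called it (1.51 ± 0.43, adjusted p = 0.0292).

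**Figure D2:**
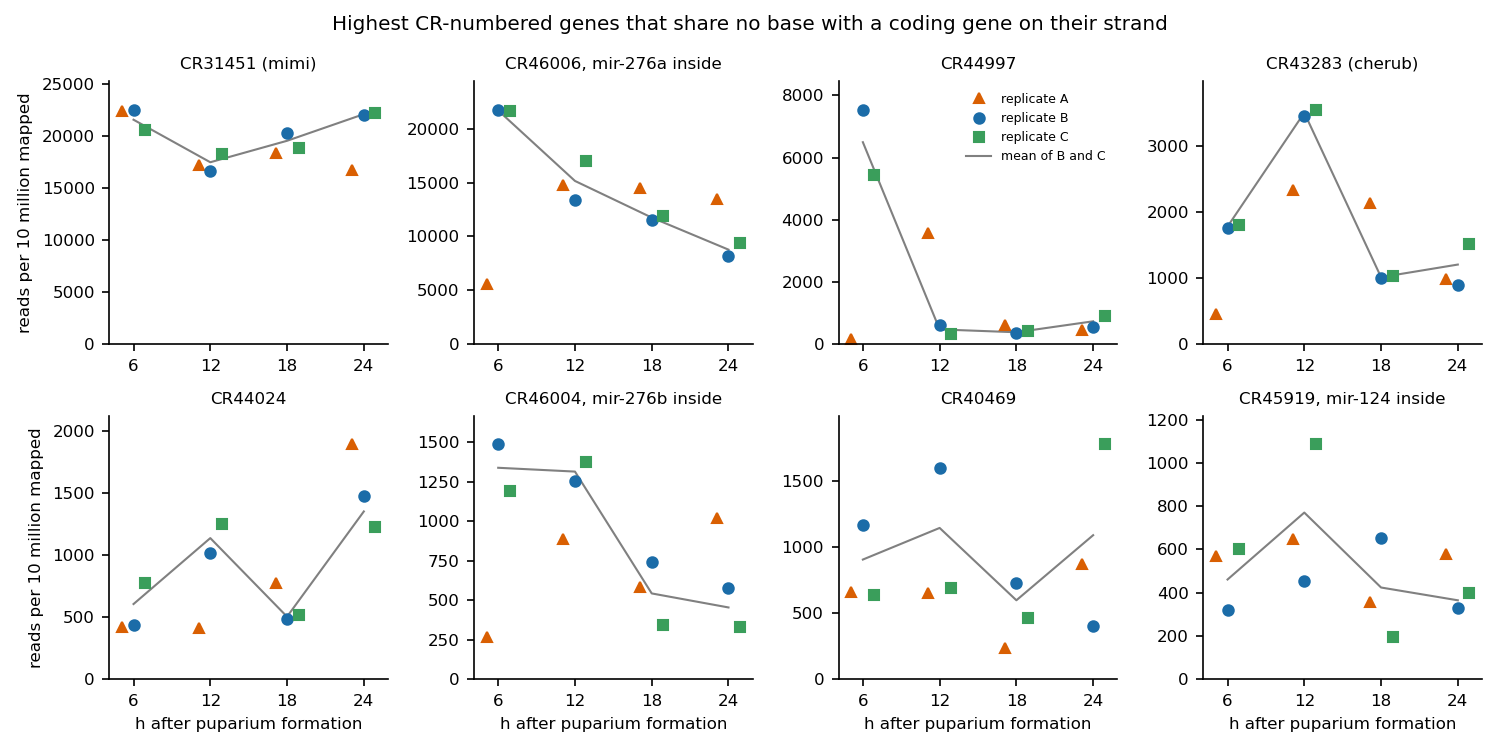
Level in each library (vertical linear axis from 0, reads per 10000000 mapped) against time for the 8 highest members that share no base with a coding gene on their strand; symbols mark replicates A, B and C, and the grey line joins the means of B and C. CR31451 stays between 16691 and 22573 units, CR44997 is high in 6 h B, 6 h C and 12 h A, and CR43283 is highest at 12 h in each replicate.

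For the 45 members that overlap a coding gene on their strand, the reads were set beside those of the overlapping gene with most reads. Of these, 25 lie wholly inside that coding gene, and none of the 25 exceeded it in any library. The 11 that lie in introns only held a median of 3.64% of the coding gene's reads, and the 14 that touch an exon held a median of 43.0%. In 6 of the 45 the member had as many reads as the coding gene to within 5%, in 17 at most 10% of them, and in 7 it exceeded the coding gene by more than 5%.

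Several pairs are close to one measurement written in 2 rows. CR42491 lies inside RpL22, which encodes a protein of the large ribosomal subunit, and held 93.1% of its reads, between 90.3% and 95.2% by library. It ranged over 8417 to 19285 units, with a log2 difference between 24 and 6 h of -0.42 ± 0.24 (SE, limma, adjusted p = 0.476). CR45184 held 99.8% of the reads of Sf3b3 (a splicing factor subunit, CG13900 in the table), and CR44957 held 100.3% of those of mei-9, a DNA repair gene. CR44097 and CG6000 had equal reads in every library, as did CR45213, CR45592 and CG3678. The long CR44357 held 100.9% of the reads of CG1677, 1 of 7 coding genes inside it on its strand. It held 71.2% of the summed reads of all 7. CR32773 spans 223710 bases of the X chromosome and held 103.3% of the summed reads of the 5 coding genes inside it on its strand. Its level was 2756 to 4523 units, with a log2 difference between 24 and 6 h of -0.27 ± 0.22 (adjusted p = 0.643).

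In other pairs the member took a part of the coding gene's reads. CR45204 lies inside Imp and touches an exon of it. Imp encodes an RNA-binding protein that sets temporal identity in mushroom body neurons, and CR45204 held 37.3% of the reads of Imp (28.3% to 42.3% by library). CR45197 held 29.5% of the reads of sgg, a kinase gene, and CR45109 held 48.6% of those of 2mit, which encodes a leucine-rich repeat membrane protein. CR44844 lies in an intron of beat-Ic, of a family of immunoglobulin proteins in axon guidance, and held 4.60%. Nothing in the sources used here says how reads that fit 2 genes were counted, so these members' values are uncertain as levels of a separate RNA.

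Of the 22 members on the opposite strand of a coding gene, 21 had a coding gene with reads. These 21 held a median of 4.92% of the reads of that gene, and 11 held under 5%. CR45874 held 0.201% of the reads of RpS9, a ribosomal protein gene, and CR45889 held 0.422% of those of Diap1, the caspase inhibitor. At the other end, 5 of the 21 exceeded their coding gene, among them CR45009 with 863 reads against 11 for FucTC. In the pair left out of these counts, CR43465 had 166 reads against 0 for Ucp4B, a mitochondrial carrier gene. CR45874, CR45889 and CR45009, and CR45184, CR44957, CR44097, CR45213, CR45592 and CR45197 of the same-strand pairs, were chosen as examples after their values were seen.

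**Figure D3:**
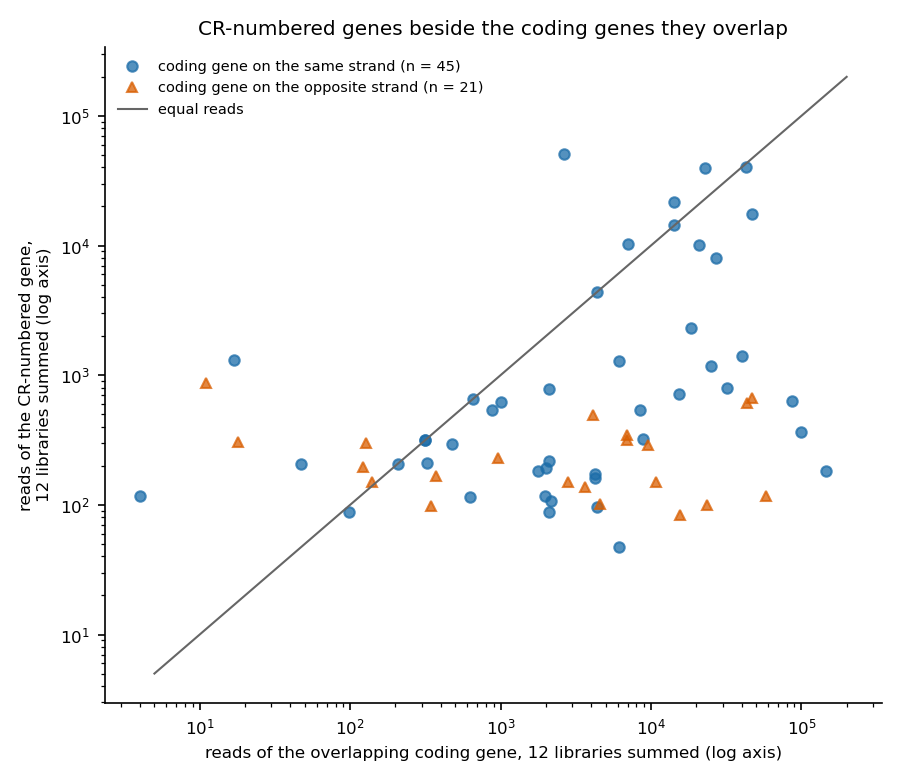
Reads of each member (vertical log axis, summed over 12 libraries) against those of the coding gene it overlaps (horizontal log axis, the overlapping gene with most reads), with the line of equal reads; circles are same-strand pairs (n = 45) and triangles opposite-strand pairs (n = 21, since Ucp4B had 0 reads and is not drawn). A run of same-strand pairs lies on the line, and most opposite-strand pairs lie far below it.

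Between 24 and 6 h, the fit of all 12 libraries called 0 of the 111 members and 0 of all 6969 rows tested, 0.0% (limma on log2(value + 1), Benjamini-Hochberg over all rows, adjusted p under 0.05). At an unadjusted p under 0.05 there were 16 of 111 members and 943 of all 6969 rows. The smallest adjusted p among members was 0.165, for CR44999. edgeR on the reads called 0 members and 0 of all 6969 rows. DESeq2 called 5 members, CR43465, CR44024, CR44999, CR45109 and CR45939, against 2.45% of all rows.

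In replicates B and C alone, 12 of 111 members (10.8%) were called between 24 and 6 h, against 10.1% of all rows tested, so the members' share was near the background. Of these, 4 rose and 8 fell, against 5.29% and 4.78% of all rows. By position, 6 overlap a coding gene on their strand, 2 overlap one on the opposite strand and 4 lie apart. Replicate A, with 1 library per time, had the same sign in 4 of the 12. A fall in bulk libraries can come from fewer cells of a kind or from less RNA per cell, which cannot be told apart. Marker levels moved over the same interval. The 7 neuronal markers took 0.709% and 0.666% of reads in B and C at 24 h, against 0.393% and 0.346% at 6 h. The 11 Kenyon cell markers took 2.27% and 2.37%, against 1.93% and 1.87%. The 7 glial markers took 0.0259% and 0.0138%, against 0.0471% and 0.0403%, mostly nrv2 (2598 and 1202 units, against 4690 and 3988). The 7 dividing-cell markers took 0.000126% and 0.000508%, against 0.0009005% and 0.00177%. Muscle and fat body markers overlapped between the 2 times. The 5 hemocyte markers took 0.00471% and 0.00544% at 24 h, against 5.3e-05% and 0.000442% at 6 h, nearly all of it Pxn (475 and 545 units, against 5.33 and 43.8); Hml, He and NimC1 were at 0 in all libraries. The part of these in the calls was not tested.

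Among members apart from coding genes, CR44997 averaged 738 units at 24 h and 6493 units at 6 h in B and C, and fell by 3.1601 ± 0.3812 on the log2 scale (SE, n = 2 each, limma, adjusted p = 3.56e-05). CR46006 averaged 8778 units at 24 h and 21689 at 6 h, a log2 change of -1.31 ± 0.18 (adjusted p = 0.000124). CR46004 changed by -1.60 ± 0.42 (adjusted p = 0.0233). In replicate A all 3 went the other way, with log2 differences of 1.40, 1.27 and 1.93. Leaving out 24 h C, 6 h B or 6 h C ended the call of CR46004 (adjusted p = 0.228, 0.149 and 0.0795).

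CR31386 (3R, bases 11269415 to 11305608, minus strand), chosen after its values were seen, lies apart from coding genes. It was at 165 and 163 units in B and C at 24 h, against 10.7 and 18.8 units at 6 h; replicate A had 281 units at 24 h and 172 at 6 h. It rose by 3.44 ± 0.96 on the log2 scale in B and C (limma, adjusted p = 0.0319), and replicate A had 0.70. Leaving out any of 4 single libraries (12 h C, 24 h B, 24 h C or 6 h B) ended this call.

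CR44894, which runs over 94235 bases of the X chromosome and overlaps the 3′ end of Ypel (CG15309 in the table, of the yippee-like family), had the smallest adjusted p of all members. In replicates A, B and C it was at 1930, 36987 and 29776 units at 6 h, 35178, 7707 and 8543 at 12 h, 8938, 2734 and 4269 at 18 h, and 3082, 3079 and 2767 at 24 h. The highest 3 libraries were 6 h B, 12 h A and 6 h C. Over B and C it fell by 3.51 ± 0.23 on the log2 scale between 24 and 6 h (limma, adjusted p = 7.55e-08), and Ypel fell by 2.72 ± 0.22 (adjusted p = 4.82e-07). CR44894 exceeded Ypel in every library, at 173% of its reads in all. With every read of Ypel subtracted, it would still hold 392 and 458 units in B and C at 24 h, against 18280 and 15402 at 6 h.

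CR45109 was at 1538, 9433 and 7237 units at 6 h, 5398, 3095 and 1349 at 12 h, 2494, 1274 and 2087 at 18 h, and 1204, 1573 and 1028 at 24 h. Between 24 and 6 h in B and C it fell by 2.70 ± 0.36 on the log2 scale (limma, adjusted p = 9.99e-05), beside a fall of 2.35 ± 0.26 for 2mit. CR45204 was at 2658, 10971 and 5948 units at 6 h, 10920, 6325 and 5262 at 12 h, 6301, 3072 and 3230 at 18 h, and 4297, 3655 and 3134 at 24 h. It fell by 1.25 ± 0.26 (adjusted p = 0.00440) beside 1.06 ± 0.20 for Imp. The call of CR45204 was lost without 24 h C (adjusted p = 0.0686) or 6 h B (adjusted p = 0.0640). CR44357 fell by 0.72 ± 0.20 (adjusted p = 0.0341), as did CG1677, whose reads it nearly equals (0.72 ± 0.20), and leaving out any of 7 single libraries ended its call.

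CR44999 spans 149629 bases of the X chromosome, with Myc, the growth regulator gene, and 4 other coding genes inside it on its strand. It was at 6401, 4562 and 4170 units at 6 h, 4206, 8717 and 7750 at 12 h, 5534, 7755 and 7622 at 18 h, and 10369, 10157 and 9801 at 24 h. All 3 libraries of 24 h were above the other 9. Its rise in B and C was 1.19 ± 0.18 on the log2 scale between 24 and 6 h (limma, adjusted p = 0.000344), and replicate A had 0.70. Myc rose by 1.44 ± 0.21 (adjusted p = 0.000187). The reads of the genes inside CR44999 sum to 91.0% of its own. Whether all of them were also counted for CR44999 is not known. If they were, without them it would be at 731 and 1053 units in B and C at 24 h. At 6 h it would be at 389 and 551 units.

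CR44844, in an intron of beat-Ic (2L, bases 16006300 to 16006713, plus strand), was at 0 in 6 h B, 6 h C and 12 h A. In A, B and C it was at 435, 0 and 0 units at 6 h, 0, 204 and 157 at 12 h, 377, 287 and 420 at 18 h, and 163, 323 and 534 at 24 h. The reads of B and C summed to 249 at 24 h, against 0 at 6 h. Set against 3 reads over both libraries of 6 h, that is at least 75.1-fold higher. Its log2 change on the log2(value + 1) scale was 8.70 ± 1.10 (limma, adjusted p = 5.54e-05), and that of replicate A was -1.41. beat-Ic was at 9202 and 7328 units in B and C at 24 h, against 2.67 and 0 units at 6 h; in 6 h A it was at 7250 units and in 12 h A at 79.9 units. For all 6 same-strand members called between 24 and 6 h, the overlapping coding gene with most reads was called in the same direction. The same reads may have been counted for both genes of a pair, so these are not independent calls.

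The remaining 2 called members, both chosen after their values were seen, overlap a coding gene on the opposite strand only. CR30055 lies across from an intron of Sin3A, a corepressor gene, and had 92 reads at 24 h and 2 at 6 h over B and C, a ratio of 41.6 (95% counting interval 11.2 to 349). Its log2 change was 5.76 ± 1.52 (limma, adjusted p = 0.0227), while Sin3A did not pass (-0.35 ± 0.26, adjusted p = 0.493). In replicate A, CR30055 was at 143 units at 24 h and 125 at 6 h. CR43465 was at 0 in all 3 libraries of 24 h, against 0, 179 and 113 units at 6 h. In B and C this was 0 reads against 85, at least 31.3-fold lower (log2 change -7.16 ± 1.67, adjusted p = 0.0104). Leaving out 24 h B, 24 h C or 6 h C ended the call of CR30055, and leaving out 6 h B or 6 h C ended that of CR43465.

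**Figure D4:**
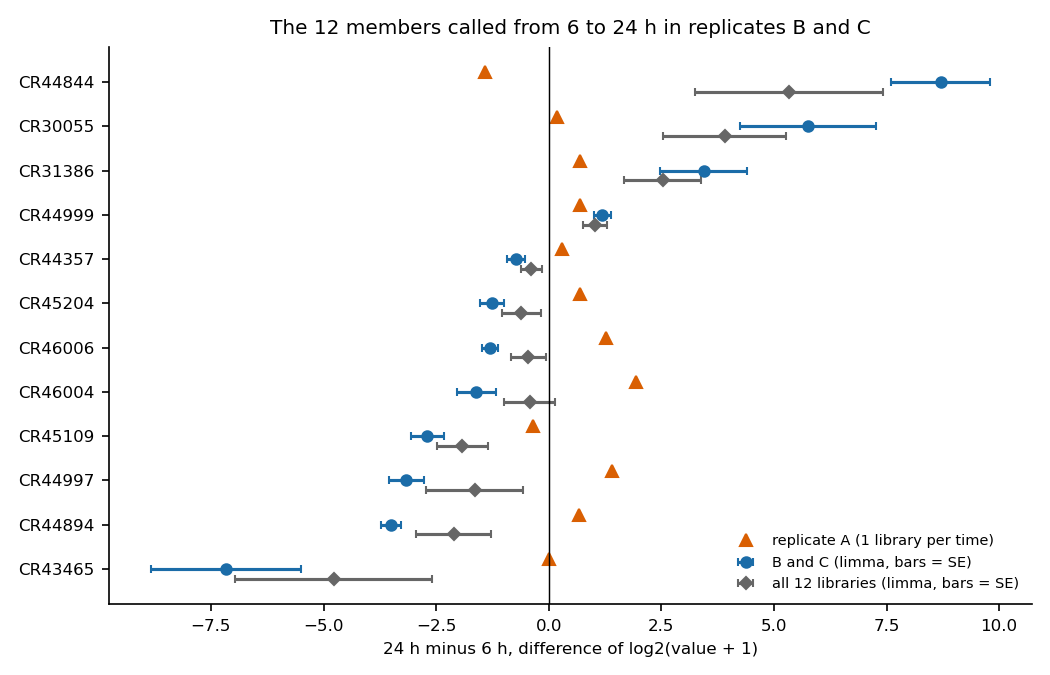
Log2 difference between 24 and 6 h, on the log2(value + 1) scale, for the 12 members called in replicates B and C; circles are B and C and diamonds all 12 libraries (bars are SE of the limma fit), and triangles are replicate A alone, with no error. Replicate A has the sign of B and C in 4 members, lies on the other side of 0 for CR44357, CR44844, CR44894, CR44997, CR45204, CR46004 and CR46006, and is at 0 for CR43465.

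**Figure D5:**
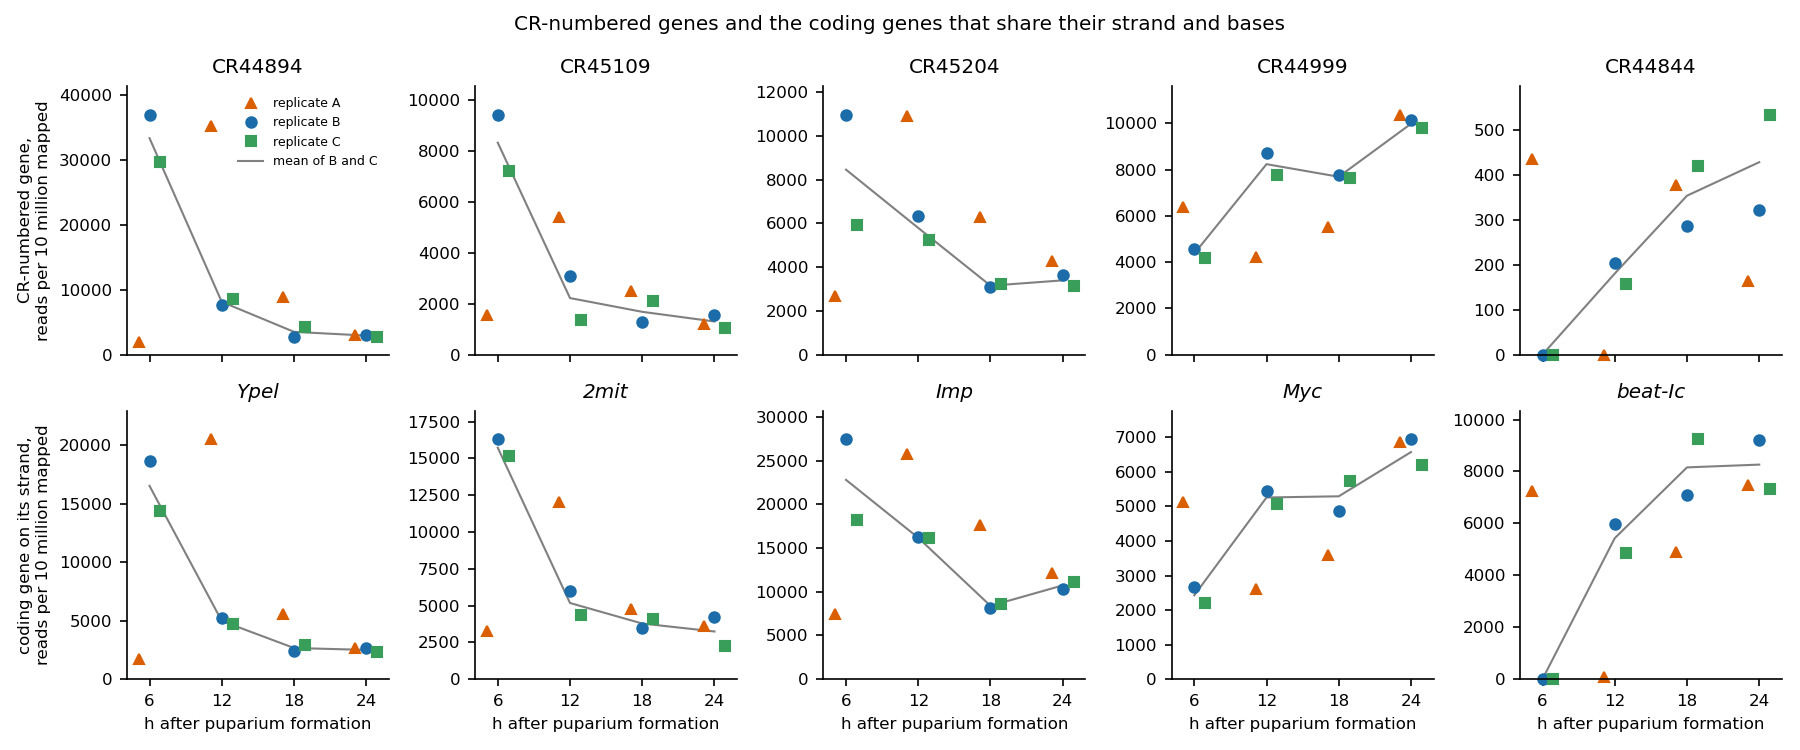
Level in each library (vertical linear axes from 0, reads per 10000000 mapped) against time for 5 members (top) and for the coding gene that shares their strand and bases (bottom); symbols mark replicates A, B and C, and the grey line joins the means of B and C. In each pair, 6 h A lies outside the range of 6 h B and C for the member and for the coding gene alike. For CR45204, 6 h B and C also differ widely from each other (10971 and 5948 units, with 2658 in A).

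Between 12 and 6 h, all 12 libraries again gave 0 members and 0.0% of all rows called with limma. An unadjusted p under 0.05 was seen in 6 of 111 members and 331 of 6969 rows. edgeR called no member and 0 of all 6969 rows, and DESeq2 called no member against 0.043% of all rows. In B and C, 6 members (5.41%) were called against 5.6% of all rows, with 3 higher at 12 h (3.3% of all rows) and 3 lower (2.3%). CR44997 averaged 477 units at 12 h and 6493 at 6 h, a log2 change of -3.80 ± 0.38 (n = 2 each, limma, adjusted p = 1.48e-05). CR44894 changed by -2.03 ± 0.23 and CR45109 by -2.01 ± 0.36 (adjusted p = 3.74e-05 and 0.00283). Over all 12 libraries the difference of CR44894 was 0.04 ± 0.84 (adjusted p = 0.999), with 4.19 in replicate A. On the other side were CR44999 with 0.91 ± 0.18, CR31386 with 3.93 ± 0.96 and CR44844, at least 33.2-fold higher at 12 h with 90 reads against 0. Replicate A had the same sign in 1 of the 6. Single libraries ended the calls of CR31386 (12 h B, 12 h C, 24 h B, 24 h C or 6 h B), CR44999 (12 h B) and CR45109 (12 h C, adjusted p = 0.0815, or 6 h B, adjusted p = 0.0541).

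Between 18 and 12 h, 0 members and 0.0% of all rows were called over all 12 libraries with limma. An unadjusted p under 0.05 was seen in 11 of 111 members and 428 of 6969 rows. No member was called by edgeR (0 of all 6969 rows) or by DESeq2 (0.0717% of all rows). Replicates B and C gave 2 called members (1.80%) against 0.359% of all rows. Both were lower at 18 h (0.33% of all rows), and none was higher (0.0287%). CR43283 averaged 1016 units at 18 h and 3510 at 12 h, and fell by 1.79 ± 0.29 on the log2 scale (limma, adjusted p = 0.0166). CR44894 fell by 1.25 ± 0.23 (adjusted p = 0.0258). Replicate A had the same sign for both, with log2 differences of -0.13 and -1.98. Leaving out any library of 12 or 18 h ended the call of CR43283 (adjusted p from 0.0700 to 0.214), and any of 6 libraries (12 h B or C, 18 h B, 24 h B or C, 6 h B) that of CR44894 (0.0501 to 0.327).

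Between 24 and 18 h, no member was called with limma, over all 12 libraries (0.0% of all rows) or in B and C (0.129% of all rows, 0.1% higher and 0.0287% lower). Over all 12 libraries, 9 of 111 members and 484 of 6969 rows had an unadjusted p under 0.05. edgeR called none in either set, against 0 of all 6969 rows over all 12 libraries and 23 of them in B and C. DESeq2 called CR45102 over all 12 libraries (0.316% of all rows), a member downstream of Mnt. CR45102, chosen after its values were seen, was at 521, 499.9 and 345 units in A, B and C at 24 h, against 126, 67.5 and 94.0 units at 18 h, and the 2 times did not overlap. Its log2 change in DESeq2 was 2.37 ± 0.61 (adjusted p = 0.0361).

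For any change over the 4 times, all 12 libraries gave 0 members with limma (0.0% of all rows) and 0 with edgeR (0 of all 6969 rows). With limma, 17 of 111 members and 690 of 6969 rows had an unadjusted p under 0.05. DESeq2 called CR44024 and CR45109 (1.71% of all rows). Replicates B and C gave 13 called members (11.7%) against 9.44% of all rows. They include CR43283 (adjusted p = 0.00200), CR44024 (adjusted p = 0.0400) and CR45910 (adjusted p = 0.0139), none of which was called between 24 and 6 h. The call of CR44024 was lost without any of 7 single libraries (all but 6 h C), and that of CR45910 without 18 h B, 6 h B or 6 h C. Without the filter on low values all 3 calls were lost.

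These counts also depended on the test and the libraries. In the order of the comparisons as given, that between 24 and 6 h being the earliest and any change the last, DESeq2 on the reads of B and C called 19, 10, 5, 2 and 20 members, against 13.6%, 7.78%, 1.85%, 1.26% and 14.2% of all rows. With limma on the 10 libraries left without 6 h A and 12 h A, 14, 8, 0, 0 and 12 members were called, against 11.5%, 5.15%, 0.0%, 0.143% and 9.31% of all rows. For DESeq2 in B and C, the share of members was above that of all rows in all 5 comparisons. For DESeq2 over all 12 libraries it was below between 12 and 6 h (0.0% against 0.043%) and between 18 and 12 h (0.0% against 0.0717%). In the remaining comparisons it was above. No test of these differences was made.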

How the data were processed

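The deposited table holds a normalised signal per gene and library: per the file headers, the authors scaled reads to 10000000 mapped reads. HISAT 0.1.5, HOMER and bcl2fastq stand in the submitters' processing notes without a role; the sources used here do not give the handling of shared reads and molecular identifiers. In every library 100% of values were whole multiples of 1 read (tolerance 0.02 reads). Reads recovered this way summed to 99.3% to 101.7% of mapped reads. Intervals cover counting error only.

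Position came from the coordinates of the table (dm6, counted from 1) and the BDGP6 annotation, to which 99.1% of symbols matched. Rows with at least 50 units in at least 3 libraries (6969) were fitted with limma 3.58.1 in R 4.3.3, with a trend, on log2(value + 1) and a mean for each time; p-values were adjusted over all rows. edgeR 4.0.16 and DESeq2 1.42.0 on recovered reads were alternatives. Another pseudocount, no filter, median-ratio scaling, a replicate term and leaving out libraries were also tried. The fits were tested on simulated data.

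The members and lists were chosen with earlier results of these data known, as was the use of B and C. Named members were the 10 with the highest mean, and those called in B and C whose log2 change was 1 or more in size, whose mean was 200 units or more and whose times did not overlap, with the 3 rows on either side of the minimum; others are marked in the text. Replicate letters did not pair libraries: same-letter deviations correlated between -0.341 and 0.071.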

Additional observations from a re-analysis of the deposited data

How the results depend on the processing

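No change of sign occurred among the 14 named log2 changes in B and C under 196 alternatives within those libraries: 173 kept the call and 23 lost it. The named changes had been chosen for not overlapping between the times in B and C. Leaving out 1 library or changing the pseudocount could therefore not turn their sign, so the kept signs are no evidence of robustness. Over all 12 libraries CR44894 between 12 and 6 h turned to 0.04, against -2.03 in B and C. Over all 12 libraries, the counts of called members were 0 for 24 against 6 h, 12 against 6 h, 18 against 12 h, 24 against 18 h and any change (in this order below). DESeq2 gave 5, 0, 0, 1 and 2, replicates B and C alone gave 12, 6, 2, 0 and 13, and leaving out 6 h A and 12 h A together, chosen after seeing the data, gave 14, 8, 0, 0 and 12. Leaving out 1 library gave 0 to 11, 0 to 3, 0 to 1, 0 to 0 and 0 to 10. The highest of these, 11, 3 and 10, came without 6 h A, where 676, 60 and 506 of all 6969 rows were called. The 1 for 18 with 12 h came without 12 h B (CR45224), where 1 of all 6969 rows was called. In B and C the counts were 12, 6, 2, 0 and 13. DESeq2, added after seeing the data, gave 19, 10, 5, 2 and 20, with the shares of all rows given above. edgeR, added in the same way, gave 12, 6, 2, 0 and 14, against 706, 404, 52, 23 and 691 of all 6969 rows. No filter on low values gave 7 for 24 with 6 h, 0 for 18 with 12 h and 6 for any change. Of all 10258 rows then tested, 506, 29 and 343 were called. Leaving out 1 library of B and C left 1 library at its time, so counts from those fits are not given here. No single library ended the calls of CR44844, CR44894, CR44997, CR44999, CR45109 and CR46006 between 24 and 6 h; without the filter CR45109 lost its call (adjusted p = 0.0529). With a replicate block (paired by letter), the counts were 0 in all 5 comparisons over 12 libraries and 12, 7, 2, 0 and 14 in B and C. The block fits called 0 of all rows over 12 libraries, and 734, 424, 45, 18 and 704 of 6969 rows in B and C. Requiring a share of 0.5 of a member to overlap moved the same-strand group to 27. Where an alternative moved a count, the cause was not tested. Low members rest on few reads: 45 of 111 were at 0 in at least 1 library, and 50 units can be as little as 7.99 reads.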
